A study of Mus musculus with 49 samples.

Results

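Goblet cells of the intestine make and release the mucus that separates the epithelium from the contents of the gut. The genes followed here were 9 of the 24062 genes in the table of read counts, and were chosen by name as a list of goblet mucus proteins: Muc2, Fcgbp, Clca3, Clca6, Zg16, Tff3, Agr2, Spink4 and Bcas1. The list is wider than its name, since Clca6 and Bcas1 are best known from other cells. All 9 passed the filter on low counts, as did 14837 genes in all. Their RNA was measured in 25 libraries of 12 groups from adult mouse small intestine (proximal 1/3, mixed B6;129 background), and the other 24 of the 49 samples were not analysed here.

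Muc2 is the gel-forming mucin on which the mucus is built, and Fcgbp is a large secreted protein bound up in the same gel. Zg16 is a small lectin of the mucus, Tff3 a secreted trefoil peptide linked to epithelial repair, and Clca3 a secreted member of the calcium-activated chloride channel regulator family that is abundant in mucus. Agr2 is a protein disulfide isomerase of the endoplasmic reticulum needed for making Muc2, Spink4 belongs to a family of Kazal-type serine protease inhibitors, and Bcas1 is a membrane-associated protein best known from myelin-forming oligodendrocytes. The choice between absorptive and secretory cells in the crypt is set by Notch signalling, which acts through Rbpj and represses Atoh1, the transcription factor required for secretory cells; blocking Notch turns crypt cells towards the secretory types.

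Goblet cells (n = 2) were sorted as CD274+CD69+ cells from wild-type mice that received 48 mg/kg of the Notch-blocking gamma-secretase inhibitor DBZ, again at 12 h, and were killed at 115 h. Paneth cells (n = 2, CD24 high and UEA lectin high) and enteroendocrine cells (n = 2, CD24 high and UEA negative) came from untreated wild-type mice. CD274+CD69+ cells were also sorted from mice given 4 injections of 50 µg/kg diphtheria toxin (DT) and killed 1 day after the last (n = 2), and from controls (n = 2); both groups are labelled wild type, and the labels name no toxin receptor transgene in them. Bmi1-GFP cells came from Bmi-1GFP/+ mice, 1 library 36 h after 10 Gy of irradiation and 3 libraries without it. Unsorted crypts came from 3 models. Crypts labelled secretory progenitors were from Rbpj F/F;Villin-CRE mice given 2 mg tamoxifen 2 times a day on 2 days and killed on day 3 (n = 2, called Rbpj-deleted crypts below), or from Atoh1 F/F mice, without a Cre in the label, given DBZ at 48 mg/kg with a second dose at 12 h and killed at 38 h (n = 2, DBZ crypts). Crypts labelled enterocyte progenitors were from Atoh1 F/F;Villin-CRE mice given 1 mg tamoxifen on 5 days and killed 3 weeks later (n = 2, Atoh1-deleted crypts). Villin-CRE acts across the intestinal epithelium, so these crypts are mixtures of cell types. Lgr5-GFP stem cells were sorted from Lgr5EGFP-DTR mice (n = 2) and from Lgr5EGFP-IRES-CRE-ERT2 mice (n = 3). Cells of the GFP reporter lines were released with TrypLE and the other sorted cells with Dispase, so enzyme and cell type cannot be told apart between those sorts. The labels call replicates biological without naming mice, so p-values measure the spread between these samples.

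Libraries held between 11179085 and 27371108 counts (median 19615067). Levels are given as counts relative to the library total, scaled by TMM (CPM), which compare a gene between libraries but not 1 gene with another, since no transcript lengths were at hand. Both control CD274+CD69+ libraries, which the labels assign to different library kits, lay far closer together than any other replicate pair (SD of the log2 ratio 0.1 over 7237 genes, against 0.29 to 0.66 for the pairs of other groups), though they differed by more than sampling noise (chi-square per degree of freedom 4.41), and they were kept as 2 samples. They may be 1 RNA sample, which would leave n = 1 for the control in each comparison that uses them; with either left out, 7 of the 9 genes, not 8, were called in goblet cells against them, 5, not 6, in them against Lgr5-GFP-Cre cells, and 0 after DT. The Rbpj-deleted crypts were labelled as a TruSeq kit and the DBZ and Atoh1-deleted crypts as SMART-Seq, so genotype and kit cannot be told apart between them. Atoh1, the targeted gene, stood at 1.56 and 1.81 CPM in Atoh1-deleted crypts, against 60.9 and 125 CPM in DBZ crypts. Rbpj stood at 22.5 and 29.3 CPM in Rbpj-deleted crypts, against 40.9 and 33 CPM in DBZ crypts and 44.9 and 45.4 CPM in Atoh1-deleted crypts. Sorted cells without the deletion overlapped the Rbpj-deleted crypts, for example 19.4 to 24.3 CPM in Lgr5-GFP-Cre and 28.3 and 30.8 CPM in goblet libraries, so these values do not check the label; whether the reads counted lie in the deleted part is not given in the sources used here.

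Promoter sequences in RefSeq (GRCm38.p6, 250 bases before to 50 bases after the gene's start) were found for 3 of the 9 genes. These 3 are shown, and whether their motifs bear on the levels was not tested. All lie on the plus strand, at chr7:28070986-28071285 for Fcgbp, chr7:141690090-141690389 for Muc2 and chr12:35992675-35992974 for Agr2, and capitals mark the matches to the motifs searched.
Fcgbp: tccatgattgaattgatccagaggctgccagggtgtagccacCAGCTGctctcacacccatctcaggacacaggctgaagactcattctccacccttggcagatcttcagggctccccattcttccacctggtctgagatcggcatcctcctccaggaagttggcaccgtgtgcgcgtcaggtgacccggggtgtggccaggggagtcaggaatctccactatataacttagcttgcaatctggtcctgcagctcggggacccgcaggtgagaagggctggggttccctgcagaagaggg
Muc2: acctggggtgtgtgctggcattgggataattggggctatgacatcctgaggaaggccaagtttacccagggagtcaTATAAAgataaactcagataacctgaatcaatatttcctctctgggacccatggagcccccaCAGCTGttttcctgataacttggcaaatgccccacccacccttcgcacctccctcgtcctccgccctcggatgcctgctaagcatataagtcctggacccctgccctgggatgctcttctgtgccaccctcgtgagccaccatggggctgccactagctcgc
Agr2: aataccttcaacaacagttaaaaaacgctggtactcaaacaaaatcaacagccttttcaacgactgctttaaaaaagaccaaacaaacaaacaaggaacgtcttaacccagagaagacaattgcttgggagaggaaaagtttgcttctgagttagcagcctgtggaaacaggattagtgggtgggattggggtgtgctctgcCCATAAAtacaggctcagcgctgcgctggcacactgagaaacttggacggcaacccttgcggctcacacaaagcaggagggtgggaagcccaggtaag
Both strands were searched for 4 motifs. The first was CAGCTG, an E-box, the class of site to which basic helix-loop-helix factors such as Atoh1 bind. It begins at position -208 of Fcgbp and -112 of Muc2, counted from the gene's start, and 16.3% of 32851 promoters in the table hold it. The letters of the TATA box core, TATAAA, begin at position -174 of Muc2 and are held by 13.6% of promoters. Whether they act as a TATA box there was not tested. The CDX-type motif searched for, TTTATGG, is held by Agr2 on the minus strand and by 2.75% of promoters. A FOXA-type motif, TGTTTAC, held by 3.65% of promoters, is not among the letters of these windows.

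Muc2 (GRCm38.p6, chr7:141690340-141754691) had 4830 and 5280 CPM in goblet libraries. It had 1850 and 1100 CPM in Paneth libraries, 848 and 550 CPM in enteroendocrine libraries, and 856 and 1080 CPM in Rbpj-deleted crypts. It had 624 and 428 CPM in DBZ crypts, against 4.65 and 9.31 CPM in Atoh1-deleted crypts. The goblet pair stood above every other library and the Atoh1-deleted pair below every other. In between, Muc2 had 378 and 295 CPM in DT-treated CD274+CD69+ cells, against 414 and 404 CPM in their controls, and 247 to 429 CPM in unirradiated Bmi1-GFP cells. Lgr5-GFP stem cells of the DTR and Cre lines overlapped, with 187 and 113 CPM in the DTR line, against 101 to 126 CPM in the Cre line.

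Fcgbp (chr7:28071236-28120864) had 13700 and 20400 CPM in goblet libraries. Among CD274+CD69+ cells it had 4900 and 3760 CPM after DT, against 5410 and 6420 CPM in controls, the group with the next highest mean. DT-treated cells, Paneth cells (6200 and 2440 CPM) and Rbpj-deleted crypts (3820 and 3340 CPM) overlapped one with the next in the order of means. DBZ crypts had 1450 and 1850 CPM of this gene, close to enteroendocrine cells (1690 and 875 CPM) and overlapping Bmi1-GFP cells (762 to 1710 CPM). Lgr5-GFP-DTR cells had 238 and 87.5 CPM, against 299 to 362 CPM in Lgr5-GFP-Cre cells. Atoh1-deleted crypts held 19 and 8 counts, or 0.762 and 0.254 CPM.

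Zg16 (chr7:127050156-127052675) had 11900 and 16200 CPM in goblet libraries, and the next highest was the single irradiated Bmi1-GFP library with 5320 CPM. Control CD274+CD69+ cells (1630 and 1660 CPM), Paneth cells (2290 and 877 CPM) and DBZ crypts (1360 and 1410 CPM) overlapped with their neighbour in the order of means. Enteroendocrine cells had 1210 and 553 CPM and DT-treated CD274+CD69+ cells 981 and 715 CPM. Replicates of Zg16 lay far apart in Bmi1-GFP cells (334 to 1200 CPM) and in Lgr5-GFP-DTR cells, with 544 and 103 CPM there, against 184 to 306 CPM in Lgr5-GFP-Cre cells. Rbpj-deleted crypts had 651 and 266 CPM. In Atoh1-deleted crypts 5 counts were seen in 1 library and 0 in the other, so any fold against this group rests on those 5 counts.

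Clca3 (current symbol Clca1, chr3:145004537-145032776) and Clca6 (current symbol Clca4a, chr3:144952486-144975045) are neighbours 29.5 kb apart with 1 other annotated gene between them, and their levels followed different patterns. Clca6 is known in mouse from enterocytes rather than goblet cells. Clca3 had 23400 and 47200 CPM in goblet libraries, against 446 and 2110 CPM in Rbpj-deleted crypts, the group with the next highest mean. Paneth cells had 1330 and 881 CPM of Clca3, enteroendocrine cells 261 and 162 CPM and Lgr5-GFP-Cre cells 74.6 to 115 CPM. The mean of goblet libraries was 27.6 times the next for Clca3 and 73.5 times the next for Clca6. Clca6 had 5160 and 5490 CPM in goblet libraries, against 48.6 and 96.4 CPM in Rbpj-deleted crypts, again the next highest. Paneth libraries held 4 and 8 counts of Clca6 and enteroendocrine libraries 10 and 7, the lowest group means of this gene. In the Lgr5-GFP lines it had 2.29 and 0.636 CPM in DTR cells, against 0.207 to 2.53 CPM in Cre cells. Clca3 was not near 0 in those cells, with 85.4 and 46.3 CPM in DTR cells.

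**Figure D1:**
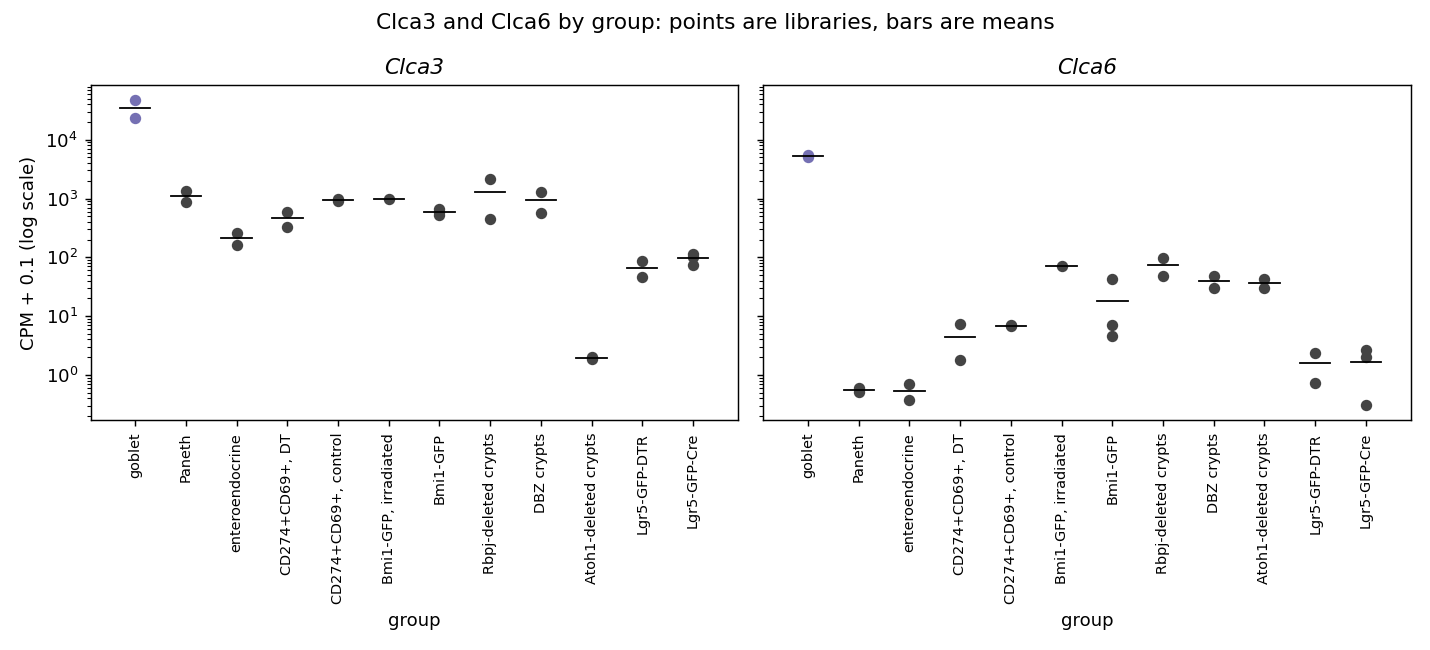
Levels of Clca3 (left) and Clca6 (right) in CPM + 0.1 on a log scale; each point is a library and each bar a group mean. Both genes were highest in the goblet libraries, while Atoh1-deleted crypts had the lowest Clca3 (1.88 and 1.78 CPM) and a Clca6 level (43.3 and 29.7 CPM) overlapping that of DBZ crypts.

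Tff3, Agr2 and Spink4 were not set apart by the goblet libraries in this way. Tff3 (chr17:31125306-31129611) had 2810 and 5630 CPM in goblet libraries and 5400 and 2570 CPM in enteroendocrine libraries, and these ranges overlapped. The other groups but the Atoh1-deleted crypts lay between 416 and 2440 CPM of Tff3, and Atoh1-deleted crypts held 11 and 26 counts of it. Agr2 (chr12:35992925-36004081) had 1040 and 996 CPM in goblet libraries, inside the range of Paneth cells (1870 and 784 CPM) and below both enteroendocrine libraries (2060 and 1060 CPM). Its highest mean was that of DBZ crypts, with 1390 and 2260 CPM, and its lowest that of Atoh1-deleted crypts, with 20.6 and 45.2 CPM. Spink4 (chr4:40920056-40931395) was highest in enteroendocrine libraries, at 18400 and 9050 CPM. Paneth cells, with 9190 and 4210 CPM, overlapped them, and Lgr5-GFP-DTR cells, with 7320 and 4200 CPM, overlapped Paneth cells. Goblet libraries had 2520 and 3230 CPM of Spink4, below all of these. Rbpj-deleted crypts (554 and 1060 CPM) overlapped DBZ crypts (867 and 675 CPM), and CD274+CD69+ cells had 887 and 515 CPM after DT, against 668 and 650 CPM in controls. Atoh1-deleted crypts had 7.9 and 20.3 CPM of Spink4. The summed level of 8 Paneth markers, none of them at 0, was 206000 to 347000 CPM in Paneth, 166000 to 228000 CPM in Lgr5-GFP-DTR, 54000 to 64100 CPM in enteroendocrine, 40500 to 49800 CPM in Lgr5-GFP-Cre and 18600 to 23600 CPM in goblet libraries. Spink4 had 587 to 1680 CPM in Lgr5-GFP-Cre libraries. The part of these markers in the Spink4 levels was not tested.

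Bcas1 (chr2:170343973-170427911) was low in most groups and had 253 and 334 CPM in goblet libraries. Paneth cells had 63.9 and 32.5 CPM, overlapping control CD274+CD69+ cells at 43.5 and 48 CPM. The Rbpj-deleted crypts (22.2 and 33.5 CPM), DBZ crypts (35.6 and 20.6 CPM) and enteroendocrine cells (28 and 15.3 CPM) overlapped, and Lgr5-GFP cells had 10.3 and 4.66 CPM in the DTR line, against 6.61 to 10.7 CPM in the Cre line. Its level in Atoh1-deleted crypts was 0.481 and 0.826 CPM. Bcas1 thus stood highest in the goblet pair and lowest in the Atoh1-deleted pair, as Muc2 did.

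**Figure D2:**
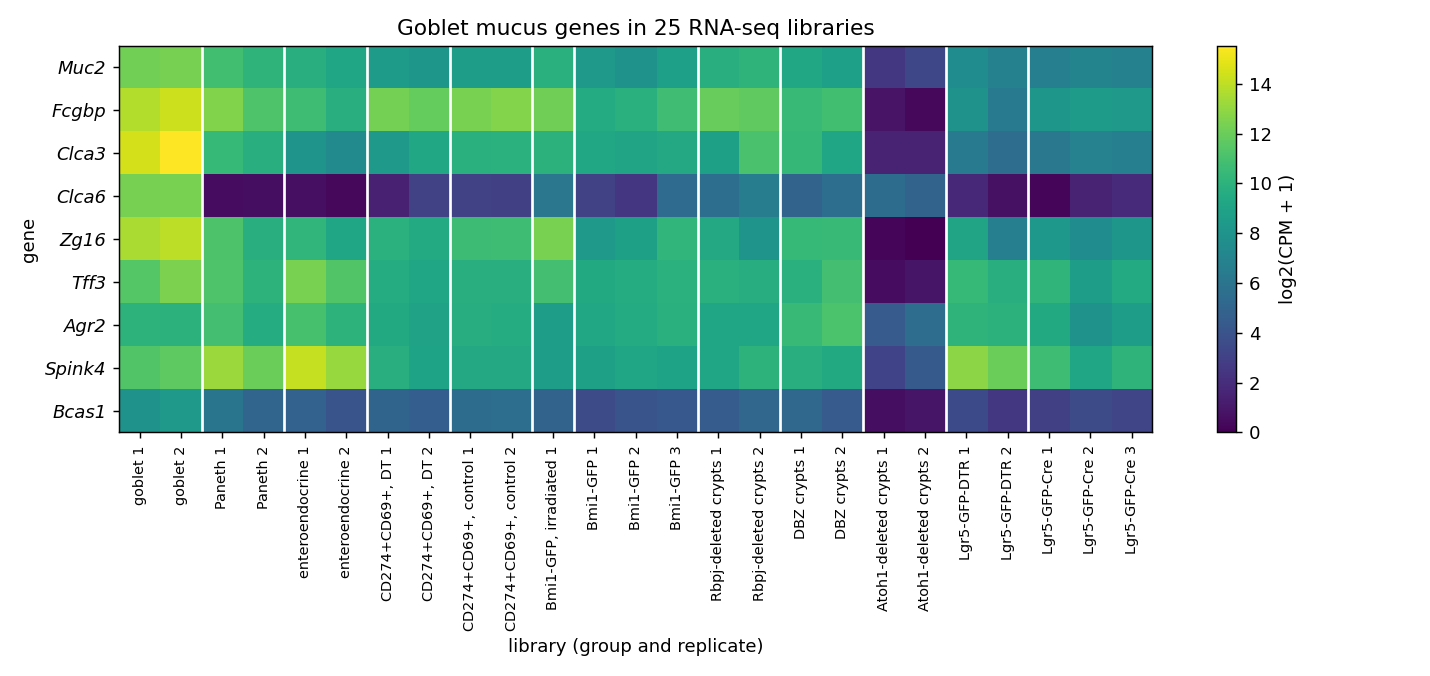
Level of each gene (rows) in each of 25 libraries (columns, white lines between groups), coloured by log2(CPM + 1). The goblet columns are the brightest for Muc2, Fcgbp, Clca3, Clca6, Zg16 and Bcas1. For Spink4 the first enteroendocrine column is the brightest (18400 CPM). The first Paneth column of Spink4 (9190 CPM) stands just above the second enteroendocrine column (9050 CPM). The Atoh1-deleted columns are the darkest for each gene but Clca6.

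Together the 9 genes took 5.19% and 7.82% of all counts in the goblet libraries, 0.00927% and 0.0124% in Atoh1-deleted crypts, and 0.234% to 2.87% in the other libraries. The gene that led this share differed by group. Clca3 led in goblet libraries with 35.6% and 45% of the members' counts, Spink4 in Paneth (36.4% and 37.1%), enteroendocrine and Lgr5-GFP libraries, and Fcgbp in CD274+CD69+ cells and unirradiated Bmi1-GFP cells.

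Across the 12 group means (log2(CPM + 1)), which share their libraries and scaling, the Pearson r among Muc2, Fcgbp, Clca3, Zg16 and Bcas1 lay between 0.91 and 0.98, given as a description. Clca6 had r from -0.29 to 0.52 with the other members. Of 11908 genes compared, the members themselves left out, the closest to Clca3, Muc2 and Bcas1 were Capn9, a calpain protease of the digestive tract (r = 0.98, 0.946 and 0.98), and Sytl2, a synaptotagmin-like protein of secretory granule traffic (r = 0.951, 0.93 and 0.962). The third was Scnn1a, a sodium channel subunit, for Clca3 (r = 0.933) and Bcas1 (r = 0.958), and Spats2l for Muc2 (r = 0.889). Fcgbp and Zg16 had Amotl2 first (r = 0.896 and 0.895) and Capn9 second (r = 0.884 and 0.888), followed by Sytl2 for Fcgbp (r = 0.855) and the tryptase gene Tpsg1 for Zg16 (r = 0.887). Tff3 and Agr2 lay closest to Rep15, a Rab15 effector (r = 0.935 and 0.962), Tpsg1 (r = 0.929 and 0.908) and Spdef, a transcription factor of goblet and Paneth cell maturation (r = 0.846 and 0.896). Spink4 lay closest to Ramp1 (r = 0.973), the Paneth cell defensin gene Defa17 (r = 0.957) and Ccl6 (r = 0.942), and Clca6 to Lama3 (r = 0.967), Pmp22 (r = 0.964) and 2010109I03Rik (r = 0.964).

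Against Lgr5-GFP-Cre stem cells, the undifferentiated cells from which goblet cells descend, goblet cells were higher in each of the 9 genes, in edgeR's quasi-likelihood test at an adjusted p below 0.05. Of all genes tested, 34.4% were called higher in this comparison, 35.4% lower and 69.7% in either direction, so a call by itself says little here. The median log2 fold change of the members was 5.47, against 0 over all genes. The largest were Clca6 (log2 11.67, SE 1.03, adjusted p = 1.06e-08) and Clca3 (log2 8.51, SE 0.62, adjusted p = 1.1e-09). Zg16 (5.75, SE 0.71), Fcgbp (5.71, SE 0.51), Muc2 (5.47, SE 0.35) and Bcas1 (5.1, SE 0.39) followed on the log2 scale, and Tff3 was higher by 2.46 (SE 0.45). Agr2 (log2 1.18, SE 0.41, adjusted p = 0.0149) and Spink4 (log2 1.37, SE 0.46, adjusted p = 0.0132) had the smallest differences. Without Lgr5-GFP-Cre replicate 2 the adjusted p was 0.0659 for Agr2 and 0.0581 for Spink4, without goblet replicate 1 it was 0.058 for Agr2, with library totals it was 0.0543 for Agr2, and without goblet replicate 2 it was 0.0844 for Spink4.

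Of 42 other genes of mucus biology (other mucins, Clca and trefoil genes, transcription factors and secretory machinery), 36 passed the filter, and 16 of them were higher and 9 lower in goblet than in Lgr5-GFP-Cre cells. Klf4, a transcription factor of goblet cell differentiation, had 968 ± 107 CPM in goblet cells and 16.2 ± 1.48 CPM in Lgr5-GFP-Cre cells (SD, n = 2 and 3; log2 5.9, SE 0.38, adjusted p = 2.75e-10). Sytl2 was also higher (log2 5.95, SE 0.42), and Clca4, a symbol of the table whose present name was not settled here, was lower (11.9 ± 3.64 against 1910 ± 510 CPM, log2 -7.33, SE 0.52). Xbp1, a transcription factor of the secretory pathway, was not called, with 276 ± 26.8 CPM in goblet cells and 300 ± 45.4 CPM in Lgr5-GFP-Cre cells.

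Genes of absorptive enterocytes moved with the goblet libraries. Each of 18 enterocyte markers was called higher in goblet than in Lgr5-GFP-Cre cells (median log2 4.42), and their summed level was 139000 to 149000 CPM in goblet libraries, against 3670 to 26700 CPM in the other groups apart from the irradiated library, with none of the 18 at 0 in any group. Markers of other cells were higher as well, 10 of 10 enteroendocrine (median log2 3.06; summed level 2330 to 2650 CPM in goblet, against 273 to 318 CPM in Lgr5-GFP-Cre libraries), 7 of 10 immune (3.65; 129 to 193 against 13.1 to 17.7 CPM) and 4 of 8 tuft cell markers (2.29; 158 to 159 against 17.9 to 22.4 CPM). Other lists went the other way: 4 of 8 Paneth markers were lower and 2 higher (-1.11; 18600 to 23600 against 40500 to 49800 CPM). Of 6 stem cell markers 5 were lower and 0 higher (-6.11). The part of these lists in the levels of the 9 genes was not tested. The single irradiated Bmi1-GFP library, set aside above, had a summed enterocyte level of 149000 CPM. In these bulk samples a smaller share of cells of a type and less RNA per cell cannot be told apart.

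**Figure D3:**
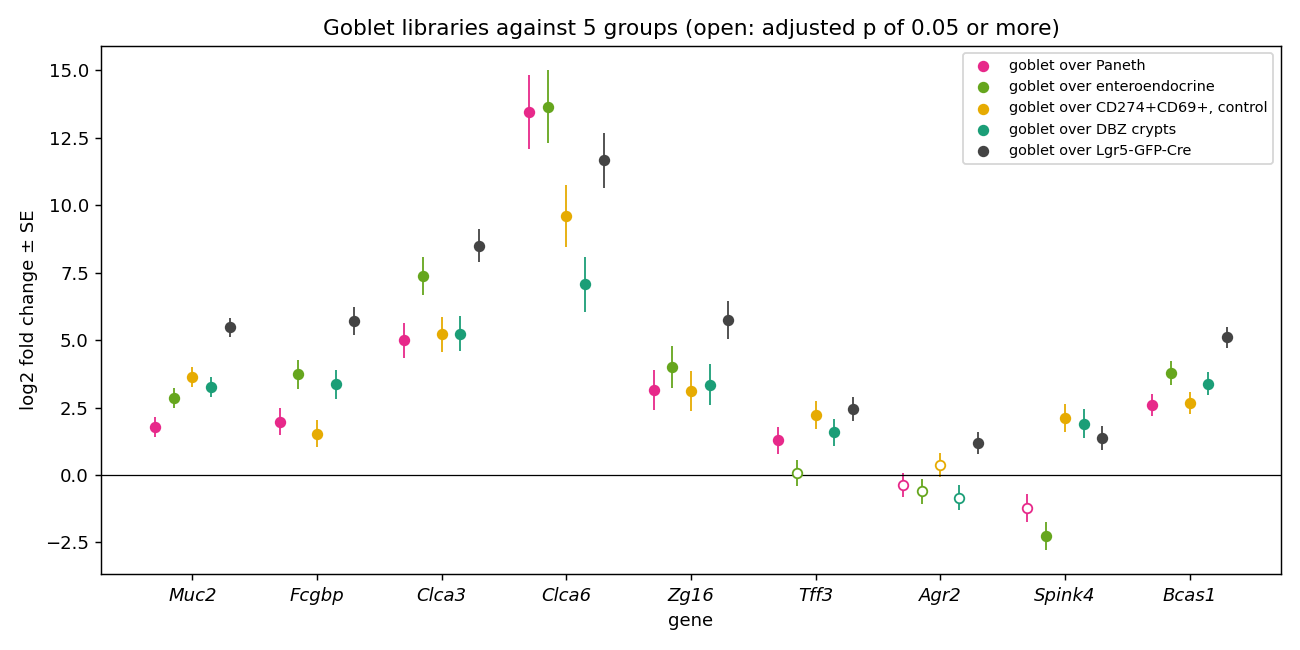
Log2 fold change (± SE, edgeR) of each gene in goblet libraries over 5 other groups; filled points have an adjusted p below 0.05 and open points do not. Clca6 and Clca3 have the largest values against every group, while the Agr2 points against 4 of the 5 groups are open and Spink4 lies below 0 against Paneth and enteroendocrine libraries.

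Goblet cells were set against the other mature secretory types, Paneth and enteroendocrine cells, to see which of the genes separate them. Against Paneth cells 7 of the 9 genes were higher and the other 2 were not called, where 23.0% of all genes were called higher, 30.8% lower and 53.8% in either direction (median of the members 1.98, of all genes -0.17, log2). Clca6 (13.47, SE 1.38), Clca3 (4.99, SE 0.64), Zg16 (3.15, SE 0.74) and Bcas1 (2.61, SE 0.41) had the largest log2 differences. Muc2 was higher by 1.78 (SE 0.36, adjusted p = 0.000371), Fcgbp by 1.98 (SE 0.51, adjusted p = 0.00317) and Tff3 by 1.28 (SE 0.5, adjusted p = 0.0377) on the log2 scale. Agr2 (log2 -0.38, SE 0.45) and Spink4 (log2 -1.22, SE 0.52, adjusted p = 0.054) were not called. Paneth replicate 1 stood well above replicate 2 for most members, for example 6200 against 2440 CPM of Fcgbp. Without Paneth replicate 2 the adjusted p was 0.051 for Fcgbp, 0.279 for Tff3 and 0.0235 for Spink4 (log2 -1.67), and without goblet replicate 2 it was 0.352 for Tff3 (log2 0.7). Marker lists moved here too: 17 of 18 enterocyte, 6 of 10 enteroendocrine and 5 of 10 immune markers were higher and 6 of 8 Paneth markers lower in goblet cells, and their part in the result was not tested. A fit of goblet and Paneth libraries alone gave 0.0854 for Tff3, and Spink4 passed with library totals (0.037) and with no filter (0.0375).

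Of the 36 other mucus biology genes tested, 9 were higher and 9 lower in goblet than in Paneth cells. Klf4 was higher (968 ± 107 against 59.6 ± 12.2 CPM, log2 4.02, SE 0.42), and the chloride cotransporter gene Slc12a2 (64.6 ± 7.26 against 767 ± 63.9 CPM, log2 -3.57, SE 0.28) and Clca4 (log2 -6.33, SE 0.5) were lower. Galnt12, which starts O-glycan chains on mucins, was not called (99.1 ± 16.6 against 138 ± 36.5 CPM, adjusted p = 0.122). Paneth libraries held goblet genes at levels above those of stem cells: against Lgr5-GFP-Cre cells, Paneth cells were higher in 8 of the 9 genes, where 21.6% of all genes were called higher, 19.1% lower and 40.7% in either direction (median of the members 2.59, of all genes 0.01, log2). Fcgbp (3.73, SE 0.47), Muc2 (3.7, SE 0.33) and Clca3 (3.51, SE 0.51) had the largest log2 differences in that comparison, and Clca6 was not called (-1.8, SE 1.24). Without Paneth replicate 1, 5 of the 9 genes were called, Zg16 (adjusted p = 0.0681), Tff3 (0.577) and Agr2 (0.191) being lost. Each of 8 Paneth markers, 7 of 8 tuft cell, 9 of 18 enterocyte and 6 of 10 enteroendocrine markers were also higher in Paneth than in Lgr5-GFP-Cre cells, and their part was not tested. Tff3 was also lost without Lgr5-GFP-Cre replicate 2 (0.137) or 3 (0.0816) with library totals (0.122), in a fit of these 2 groups alone (0.11) and without the TruSeq libraries (0.0525).
Among the other mucus biology genes, 15 were higher and 3 lower in Paneth than in Lgr5-GFP-Cre cells, with Sytl2 (60.9 ± 21.4 against 3.58 ± 1.7 CPM), Klf4 (59.6 ± 12.2 against 16.2 ± 1.48 CPM) and Kdelr3, a receptor that returns proteins to the endoplasmic reticulum (33.3 ± 15.4 against 10.7 ± 1.5 CPM), of lowest adjusted p; Slc12a2 was not called (767 ± 63.9 against 813 ± 69.2 CPM).

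Against enteroendocrine cells, goblet cells were higher in 6 of the genes and lower in Spink4 (log2 -2.26, SE 0.53, adjusted p = 0.00127). Of all genes 26.1% were called higher, 36.8% lower and 63.0% in either direction, and the median log2 fold change was 3.73 for the members and -0.35 for all genes. Clca6 (13.66, SE 1.36) and Clca3 (7.38, SE 0.72) again led on the log2 scale, before Zg16 (4, SE 0.77), Bcas1 (3.77, SE 0.44), Fcgbp (3.73, SE 0.55) and Muc2 (2.85, SE 0.37). Tff3 (log2 0.08, SE 0.49, adjusted p = 0.897) and Agr2 (log2 -0.61, SE 0.45, adjusted p = 0.247) were not called. Beside the members, all 18 enterocyte markers were higher in goblet cells (median log2 5.7), and 9 of 10 enteroendocrine, 8 of 8 tuft cell, 6 of 8 Paneth and 6 of 10 immune markers were lower; their part was not tested. With libraries scaled by their totals alone Tff3 stood at log2 -0.29 and Agr2 at -0.98 (adjusted p = 0.0393).

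Of the other mucus biology genes, 15 were higher and 6 lower in goblet than in enteroendocrine cells. The transmembrane mucin Muc13 (3360 ± 277 against 515 ± 12.8 CPM, log2 2.71, SE 0.25) and Sytl2 (219 ± 46.5 against 11.7 ± 0.838 CPM, log2 4.23, SE 0.46) were higher, Clca4 was lower (log2 -5.06, SE 0.48), and Xbp1 was not called (276 ± 26.8 against 286 ± 30.8 CPM). Enteroendocrine libraries also carried more RNA of most members than stem cells did. Against Lgr5-GFP-Cre cells they were higher in 7 of the 9 genes (25.5% of all genes were called higher, 20.4% lower and 45.9% in either direction; median log2 1.8 for the members and 0.04 for all genes), with Spink4 (log2 3.62, SE 0.48), Muc2 (2.62, SE 0.32) and Tff3 (2.38, SE 0.45) first, while Clca3 (log2 1.13, SE 0.49, adjusted p = 0.0678) and Clca6 (log2 -1.99, SE 1.14) were not called. Without enteroendocrine replicate 1, 4 members were called, Zg16 (adjusted p = 0.288), Agr2 (0.0548) and Bcas1 (0.152) being lost, and Zg16 was also lost without Lgr5-GFP-Cre replicate 2 (0.0867) or 3 (0.0589). Each of 10 enteroendocrine and 8 tuft cell markers and 8 of 10 immune markers were higher in these libraries than in Lgr5-GFP-Cre cells, and 1 immune marker was lower. Of 8 Paneth markers 3 were higher and 0 lower (median log2 1.03), with sums of 54000 to 64100 CPM, against 40500 to 49800 CPM. Of the other lists, 5 of 18 enterocyte and 5 of 6 stem cell markers were lower. The part of these lists in the result was not tested. Clca3 was called with no filter (adjusted p = 0.0475), in a fit of these 2 groups alone (0.02), without the TruSeq libraries (0.0411) and in DESeq2 (0.0341). Beside them, 11 of the other mucus biology genes were higher and 5 lower; Klf4 was higher (88.1 ± 1.57 against 16.2 ± 1.48 CPM), Nlrp6, an innate immune sensor (96.9 ± 7.25 against 382 ± 37.7 CPM), and Clca4 (396 ± 82.1 against 1910 ± 510 CPM) were lower, and Muc13 was not called (515 ± 12.8 against 625 ± 109 CPM).

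The goblet cells and the control CD274+CD69+ cells were sorted with the same pair of surface proteins, the first after Notch inhibition. A change within cells and a change in the make-up of the sorted cells cannot be told apart in their comparison. Goblet cells were higher in 8 of the 9 genes, where 21.8% of all genes were called higher, 29.5% lower and 51.2% in either direction (median log2 2.68 for the members, -0.1 for all genes). Clca6 (9.61, SE 1.14), Clca3 (5.22, SE 0.65) and Muc2 (3.63, SE 0.38) had the largest log2 differences, followed by Zg16 (3.1, SE 0.74), Bcas1 (2.68, SE 0.41), Tff3 (2.24, SE 0.52) and Spink4 (2.12, SE 0.53). Fcgbp, already high in the control cells, was higher by 1.53 (SE 0.5, adjusted p = 0.0169), a call lost without either control library (adjusted p = 0.108 and 0.0604) or without goblet replicate 2 (0.114) and without the TruSeq libraries (0.0776). Agr2 was not called (1040 and 996 CPM in goblet cells, against 800 and 773 CPM in control cells, log2 0.37, SE 0.45), its sign turned with library totals (log2 -0.05), and it was called higher in a fit of these 2 groups alone (log2 0.49, adjusted p = 0.00301).

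Of the other mucus biology genes 19 were higher and 5 lower in goblet than in control CD274+CD69+ cells. Klf4 (968 ± 107 against 55.1 ± 1.8 CPM, log2 4.14, SE 0.42) was higher, Nlrp6 (70.6 ± 9.91 against 449 ± 5.74 CPM, log2 -2.67, SE 0.25) and Clca4 (11.9 ± 3.64 against 931 ± 31.9 CPM, log2 -6.3, SE 0.5) were lower, and Xbp1 was not called (276 ± 26.8 against 358 ± 7.1 CPM). Enterocyte genes moved here too: 12 of 18 markers were higher and none lower, with a summed level of 139000 to 149000 CPM in goblet cells, against 23600 to 23800 CPM in control cells. Of the other lists, 10 of 10 enteroendocrine markers (median log2 2.64; 2330 to 2650 CPM in goblet, against 344 to 410 CPM in control cells), 7 of 8 tuft cell markers (4.73; 158 to 159 against 8.85 to 9.04 CPM) and 4 of 10 immune markers (1.73; 129 to 193 against 22 to 69.1 CPM) were higher, and 5 of 6 stem cell markers were lower. The part of these lists in the result was not tested.

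Goblet cells were then compared with DBZ crypts, which had received the same drug but were taken at 38 h and were not sorted. Goblet cells were higher in 8 of the 9 genes, where 24.9% of all genes were called higher, 30.1% lower and 55.0% in either direction (median log2 3.35 for the members, -0.07 for all genes). The log2 differences ranged from 1.59 (SE 0.5) for Tff3 and 1.9 (SE 0.53) for Spink4 to 5.24 (SE 0.65) for Clca3 and 7.08 (SE 1.02) for Clca6. Muc2 (3.26, SE 0.38), Fcgbp (3.37, SE 0.54), Zg16 (3.35, SE 0.75) and Bcas1 (3.38, SE 0.43) lay close together between them. Agr2 was not called (log2 -0.84, SE 0.46, adjusted p = 0.128), and was called lower with library totals (log2 -1.34, adjusted p = 0.00803). Tff3 was lost without DBZ replicate 1 (adjusted p = 0.0731) or goblet replicate 2 (0.166). Of the marker lists, 16 of 18 enterocyte and 8 of 10 enteroendocrine markers were higher and 5 of 6 stem cell markers lower, and their part was not tested. In the lists of other mucus biology genes 10 were higher and 5 lower, Klf4 (968 ± 107 against 28.2 ± 13.4 CPM) higher, Clca4 (11.9 ± 3.64 against 506 ± 308 CPM) and Slc12a2 (64.6 ± 7.26 against 365 ± 184 CPM) lower, and Xbp1 (276 ± 26.8 against 381 ± 31.8 CPM) was not called.

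In unsorted crypts, Notch inhibition and loss of Atoh1 push cells towards opposite fates. DBZ crypts were higher than Atoh1-deleted crypts in 8 of the 9 genes, in a comparison where 1.89% of all genes were called higher, 0.573% lower and 2.46% in either direction. The median log2 fold change was 6.23 for the members and -0.01 for all genes. Fcgbp was higher by log2 11.7 (SE 0.8, adjusted p = 6.4e-08), Tff3 by 11.07 (SE 0.78) and Clca3 by 8.99 (SE 0.78). Muc2 (6.23, SE 0.44), Agr2 (5.79, SE 0.56), Spink4 (5.77, SE 0.63) and Bcas1 (5.39, SE 0.51) followed on the same scale, and the fitted log2 of 13.81 (SE 1.26) for Zg16 rests on 5 counts in the Atoh1-deleted crypts. Clca6 was the exception, with 30.3 and 48.5 CPM in DBZ crypts, against 43.3 and 29.7 CPM in Atoh1-deleted crypts (log2 0.11, SE 0.79, adjusted p = 1). Leaving out any library of this pair of groups left 8 members called, while the count over all genes ranged from 141 to 442, against 365 with all libraries.

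Of the 36 other mucus biology genes 12 were higher and 2 lower in DBZ than in Atoh1-deleted crypts. Atoh1, the gene deleted in the second group, had 92.9 ± 45.3 CPM in DBZ crypts and 1.69 ± 0.175 CPM in Atoh1-deleted crypts (SD, n = 2 each; log2 5.77, SE 0.4). Rep15 (55.6 ± 19 against 0.0477 ± 0.0674 CPM) and Tpsg1 (21.6 ± 2.45 against 0.0477 ± 0.0674 CPM) were near 0 in Atoh1-deleted crypts, and no fold is given for them. Clca4 was not called (506 ± 308 against 903 ± 170 CPM, adjusted p = 0.424). Markers of Paneth cells and of enteroendocrine cells were also low in Atoh1-deleted crypts: the 8 Paneth markers summed to 4740 to 18900 CPM in DBZ crypts, against 91 to 154 CPM in Atoh1-deleted crypts, and 10 enteroendocrine markers to 357 to 592 CPM, against 25.9 to 40.1 CPM. Whether the 8 called members differed with goblet cells alone was not tested. No untreated unsorted crypts are among the groups, so a fall in Atoh1-deleted crypts and a rise in DBZ crypts cannot be told apart.

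Rbpj-deleted crypts, which by their label lack a gene of Notch signalling and did not receive the drug, were likewise higher than Atoh1-deleted crypts in 8 of the 9 genes. Here 15.1% of all genes were called higher, 13.0% lower and 28.2% in either direction, and the median log2 fold change was 7.11 for the members and -0.02 for all genes. Fcgbp (12.81, SE 0.83), Tff3 (10.4, SE 0.76), Clca3 (9.44, SE 0.79) and Muc2 (7.11, SE 0.45) led on the log2 scale, beside Zg16 (12.21, SE 1.21, on the same 5 counts), and without Rbpj-deleted replicate 2 Clca3 stood at 7.89. Spink4 was higher by 5.84 (SE 0.63), Bcas1 by 5.38 (SE 0.51) and Agr2 by 4.1 (SE 0.51). Clca6 was not called, with 48.6 and 96.4 CPM in Rbpj-deleted crypts, against 43.3 and 29.7 CPM in Atoh1-deleted crypts (log2 0.99, SE 0.79, adjusted p = 0.385). Both comparisons use the same Atoh1-deleted libraries, and here the library kit differs too. Of the marker lists, 8 of 8 Paneth (median log2 5.94), 9 of 10 enteroendocrine (4.5) and 4 of 18 enterocyte markers were higher. Of 8 tuft cell markers 2 were lower, and of 6 stem cell markers 1 was higher and 2 lower. The part of these lists in the result was not tested. Of the 36 other mucus biology genes 19 were higher and 1 lower, Atoh1 (32 ± 10.4 against 1.69 ± 0.175 CPM), Spdef (41.4 ± 8.58 against 1.29 ± 0.691 CPM) and Rep15 (29.7 ± 11.1 against 0.0477 ± 0.0674 CPM) having the lowest adjusted p, and Clca4 was not called (1110 ± 248 against 903 ± 170 CPM).

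**Figure D4:**
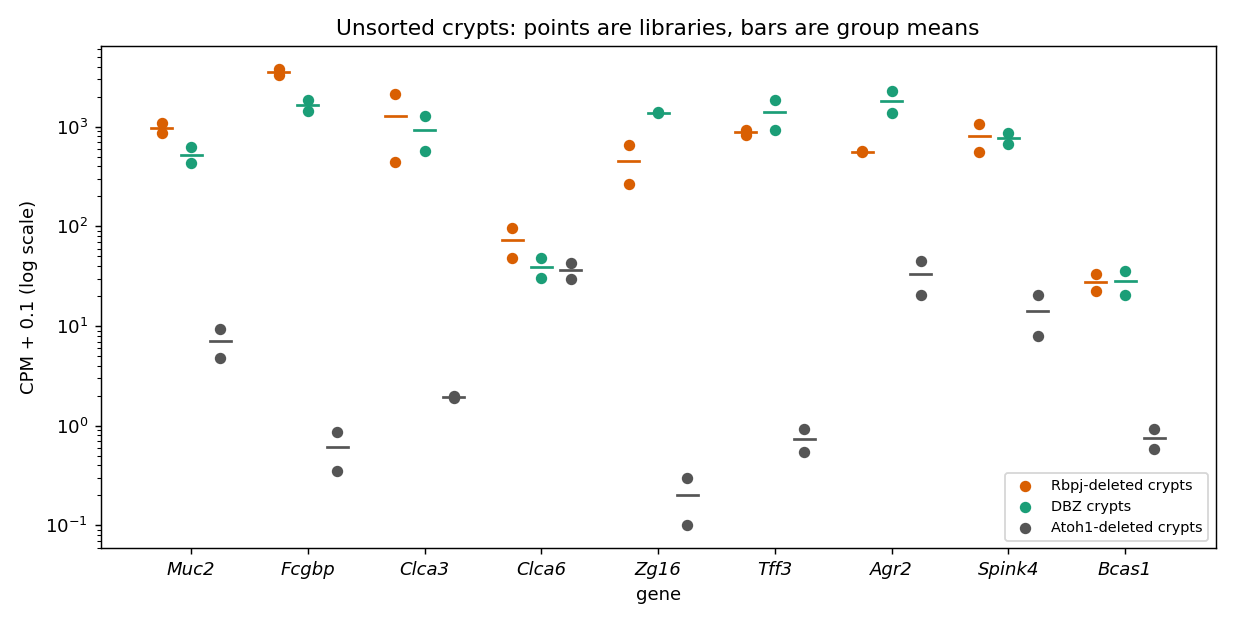
Level of each gene in unsorted crypts, in CPM + 0.1 on a log scale; each point is a library (n = 2 per group) and each bar a group mean. For every gene but Clca6 the Rbpj-deleted and DBZ libraries lie far above the Atoh1-deleted ones; Zg16 in Atoh1-deleted crypts had 0.2 and 0 CPM.

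Set directly against each other, Rbpj-deleted crypts differed from DBZ crypts in 1 member, where 11.9% of all genes were called lower, 12.9% higher and 24.7% in either direction. Agr2 was lower, with 564 and 565 CPM in Rbpj-deleted crypts, against 1390 and 2260 CPM in DBZ crypts (log2 -1.69, SE 0.46, adjusted p = 0.0119). This call was lost without DBZ replicate 2 (adjusted p = 0.114) or without either Rbpj-deleted library (0.0569 and 0.0645). Zg16 had 651 and 266 CPM, against 1360 and 1410 CPM (log2 -1.59, SE 0.7, adjusted p = 0.109), Muc2 856 and 1080 CPM, against 624 and 428 CPM (log2 0.88, SE 0.35, adjusted p = 0.0741), and Fcgbp 3820 and 3340 CPM, against 1450 and 1850 CPM (log2 1.12, SE 0.5, adjusted p = 0.114). None of these 3 passed the test. In a fit of these 2 groups alone Zg16 (adjusted p = 0.0353) and Fcgbp (0.0182) passed, and Muc2 passed with library totals (0.0472) and in DESeq2 (0.0331). The median of the members was 0.07 and that of all genes 0.01 on the log2 scale. Of the other mucus biology genes, 6 were higher and 7 lower; Muc4, a transmembrane mucin, was higher (138 ± 35.1 against 33.1 ± 8.15 CPM, log2 2.06, SE 0.36), Atoh1 (32 ± 10.4 against 92.9 ± 45.3 CPM, log2 -1.54, SE 0.32) and Xbp1 (202 ± 18.7 against 381 ± 31.8 CPM, log2 -0.92, SE 0.21) were lower, and Nlrp6 was not called (315 ± 3.78 against 260 ± 49.5 CPM).

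The control CD274+CD69+ cells are a sorted crypt population compared in this study with stem cells, and they carried part of the mucus genes. Against Lgr5-GFP-Cre cells they were higher in 6 of the 9 genes, where 24.0% of all genes were called higher, 21.3% lower and 45.3% in either direction (median log2 2.06 for the members, 0 for all genes). Fcgbp had the largest difference (5410 and 6420 CPM in CD274+CD69+ cells, against 299, 362 and 318 CPM in Lgr5-GFP-Cre cells, log2 4.18, SE 0.48, adjusted p = 2.55e-06). Clca3 (3.29, SE 0.51), Zg16 (2.65, SE 0.63), Bcas1 (2.42, SE 0.37) and Muc2 (1.85, SE 0.31) were higher on the log2 scale. Clca6 was called at levels of 7.04 and 6.55 CPM, against 0.207, 1.93 and 2.53 CPM (log2 2.06, SE 0.82, adjusted p = 0.0484); without 1 library its adjusted p lay at 0.051 or above whichever of the 5 was left out, and it was 0.0566 in DESeq2, 0.0526 with DESeq2's size factors and 0.145 without the TruSeq libraries. Agr2 was called without Lgr5-GFP-Cre replicate 1 (log2 1.24, adjusted p = 0.0277). Tff3 (log2 0.21), Agr2 (log2 0.81) and Spink4 (log2 -0.76) were not called. Beside the members, 16 of 18 enterocyte markers were higher in the control CD274+CD69+ cells (median log2 2.45; 23600 to 23800 CPM, against 5050 to 8110 CPM in Lgr5-GFP-Cre cells), 6 of 6 stem cell markers lower (-2.3; 1040 against 5390 to 7180 CPM), 5 of 8 Paneth markers lower and 3 of 10 immune markers higher, and their part was not tested. Among other genes of mucus biology 4 were higher and 8 lower, with Sytl2 (20.1 ± 3.9 against 3.58 ± 1.7 CPM) higher, and Agr3 (1.44 ± 0.15 against 18.4 ± 10.7 CPM), a relative of Agr2, and Foxa2 (5.34 ± 0.155 against 25.2 ± 3.37 CPM), a transcription factor of secretory cells, lower; Nlrp6 was not called (449 ± 5.74 against 382 ± 37.7 CPM).

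After diphtheria toxin, none of the 9 genes was called different from control CD274+CD69+ cells in edgeR's test, none had an unadjusted p below 0.05, and DESeq2 called none. In this comparison 0.0741% of all genes were called higher, 0.101% lower and 0.175% in either direction. Fitted log2 fold changes of the members ran from -1.03 (SE 0.55) for Clca3 to 0.09 (SE 0.51) for Spink4, with Muc2 at -0.28 (SE 0.35). Their median was -0.45, against 0.02 over all genes. The median log2 of marker lists was -0.73 for enterocyte, -1.19 for Paneth and 0 for enteroendocrine markers. It was 0.37 for stem cell, 0.84 for tuft cell and 1.28 for immune markers. Enterocyte markers summed to 8750 to 16500 CPM after the toxin, against 23600 to 23800 CPM in controls. The part of these lists in the result was not tested. The values of Clca3 were 328 and 601 CPM after the toxin, against 919 and 977 CPM in controls, and those of Bcas1 30.8 and 23.8 CPM, against 43.5 and 48 CPM (log2 -0.74, SE 0.39). Zg16 had 981 and 715 CPM, against 1630 and 1660 CPM (log2 -0.96, SE 0.69, adjusted p = 0.986). The control pair of libraries agreed more closely than any other pair, and in a model of these 2 groups alone Zg16 passed (adjusted p = 0.0463). None of the 36 other mucus biology genes was called in edgeR's test, 1 had an unadjusted p below 0.05 and DESeq2 called 1. Both were Retnlb, a resistin-like protein secreted by goblet cells, named here after its values were seen, with 8.79 and 473 CPM in the lower and higher library after the toxin, against 0.205 and 0.229 CPM in controls (adjusted p = 0.12 in edgeR and 5.06e-05 in DESeq2). Muc13, the one with the most counts, had 1530 ± 148 CPM after the toxin and 1330 ± 18.9 CPM in controls.

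Bmi1-GFP cells, sorted for a reporter of crypt cells once taken as reserve stem cells, were set against Lgr5-GFP-Cre stem cells. They were higher in 5 members and lower in Spink4, where 27.9% of all genes were called higher, 22.5% lower and 50.4% in either direction (median log2 1.34 for the members, 0.09 for all genes). Clca6 (3.48, SE 0.77), Clca3 (2.61, SE 0.47), Fcgbp (1.8, SE 0.42) and Muc2 (1.55, SE 0.29) were higher on the log2 scale. Bmi1-GFP replicate 3 stood apart for Clca6, with 42.6 CPM, against 6.99 and 4.51 CPM in replicates 1 and 2, and without it the log2 difference was 1.82, still called. Clca3, by contrast, had 600, 528 and 651 CPM in the 3 Bmi1-GFP libraries, against 74.6, 115 and 101 CPM in Lgr5-GFP-Cre cells. Bcas1 (log2 0.82, SE 0.34, adjusted p = 0.0486) was lost without Lgr5-GFP-Cre replicate 1 (0.16) or 3 (0.103) and without Bmi1-GFP replicate 2 (0.0826) or 3 (0.165), and without the TruSeq libraries (0.0544). Spink4 (log2 -1.14, SE 0.42, adjusted p = 0.0323) was lost without Lgr5-GFP-Cre replicate 1 (0.194) or 3 (0.0607) and without any Bmi1-GFP library (0.0984, 0.0615 and 0.0716), and with library totals (0.0555). Zg16 was not called (log2 1.34, SE 0.57, adjusted p = 0.0576) but passed with no filter (0.0348), with DESeq2's size factors (0.0495), with library totals (0.0235), in a fit of these 2 groups alone (0.0303) and without Bmi1-GFP replicate 1 (0.0296) or 2 (0.0438). Agr2 (0.79, SE 0.37) was not called but passed with library totals (0.0168), in DESeq2 (0.0404) and without Lgr5-GFP-Cre replicate 1 (0.0201), and Tff3 (0.09, SE 0.4) was not called.

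Of the other mucus biology genes, 7 were higher and 9 lower in Bmi1-GFP than in Lgr5-GFP-Cre cells, with Klf4 higher (68.3 ± 27.5 against 16.2 ± 1.48 CPM), Slc12a2 (301 ± 44.6 against 813 ± 69.2 CPM) and the forkhead factor Foxa3 (35.7 ± 9.07 against 155 ± 11.2 CPM) lower, and Xbp1 not called (300 ± 8.29 against 300 ± 45.4 CPM). Enteroendocrine markers were high in these cells, summing to 7780 to 14700 CPM in Bmi1-GFP libraries and 13900 to 28800 CPM in enteroendocrine libraries, against 273 to 318 CPM in Lgr5-GFP-Cre libraries. Beside these 10 of 10 markers, 9 of 10 immune (median log2 5.19; 376 to 946 CPM in Bmi1-GFP, against 13.1 to 17.7 CPM in Lgr5-GFP-Cre libraries), 7 of 8 tuft cell (4.02; 183 to 428 against 17.9 to 22.4 CPM) and 15 of 18 enterocyte markers (1.69; 10300 to 25300 against 5050 to 8110 CPM) were higher and 6 of 8 Paneth markers lower, and their part in the result was not tested. Against the sorted enteroendocrine cells, Bmi1-GFP cells were higher in 2 members and lower in 3, where 12.6% of all genes were called higher, 12.1% lower and 24.7% in either direction (median log2 -0.51 for the members, 0 for all genes). Spink4 was far lower, with 454, 559 and 509 CPM in Bmi1-GFP cells, against 18400 and 9050 CPM in enteroendocrine cells (log2 -4.76, SE 0.5, adjusted p = 2.97e-05). Tff3 (-2.29, SE 0.45) and Muc2 (-1.07, SE 0.31) were lower on the log2 scale, and Clca6 (5.47, SE 1.08) and Clca3 (1.49, SE 0.52, adjusted p = 0.0438) were higher. Without Bmi1-GFP replicate 3 the log2 difference of Clca6 was 3.81, still called. Of the marker lists, 17 of 18 enterocyte markers were higher and 8 of 8 Paneth and 7 of 8 tuft cell markers lower, and their part was not tested.
Clca3 was lost whichever of the 5 libraries was left out (adjusted p from 0.0508 to 0.228), Muc2 without Bmi1-GFP replicate 1 (0.0703) or 2 (0.106) or enteroendocrine replicate 1 (0.257), and Tff3 without enteroendocrine replicate 1 (0.0535), while Agr2 was called lower without enteroendocrine replicate 2 (0.0457). Among the other mucus biology genes 5 were higher and 8 lower, Nlrp6 (237 ± 22 against 96.9 ± 7.25 CPM) higher, the cargo receptor gene Tmed3 (72.9 ± 4.75 against 179 ± 59.3 CPM) and the transcription factor gene Creb3l4 (18.5 ± 2.31 against 42.5 ± 6.03 CPM) lower, and Clca4 not called (716 ± 142 against 396 ± 82.1 CPM).

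The single irradiated Bmi1-GFP library has no replicate, so its values are given without a test. Of the members 7 lay above the highest of the 3 unirradiated libraries, and Agr2 and Spink4 lay below the lowest; of all genes, 34.4% lay above and 47.9% below. Zg16 had 5320 CPM after irradiation, against 334, 457 and 1200 CPM without it, 8.01 times their mean. Fcgbp had 4490 CPM, against 762, 933 and 1710 CPM, and Muc2 937 CPM, against 325, 247 and 429 CPM. Tff3 (1930 CPM, 2.37 times the mean), Bcas1 (29.9 CPM, 1.98 times) and Clca3 (989 CPM, 1.67 times) were higher by less, and Clca6 stood at 70.2 CPM, against 6.99, 4.51 and 42.6 CPM. These levels use a TMM factor of 0.7117 for the irradiated library, against 1.18, 1.218 and 1.129 for the others, which raises its values. By library totals Clca3 was not above the unirradiated range, with 17781 of 25275201 counts, against 14909 of 20271364 in unirradiated replicate 3. By the same totals Bcas1 and Clca6 stood only just above that range. Agr2 had 415 CPM, against 634 to 940 CPM, and Spink4 411 CPM, against 454 to 559 CPM. The summed level of 18 enterocyte markers was 149000 CPM in the irradiated library, against 10300 to 25300 CPM, and that of 10 enteroendocrine markers 1960 CPM, against 7780 to 14700 CPM; their part in these values was not tested.

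**Figure D5:**
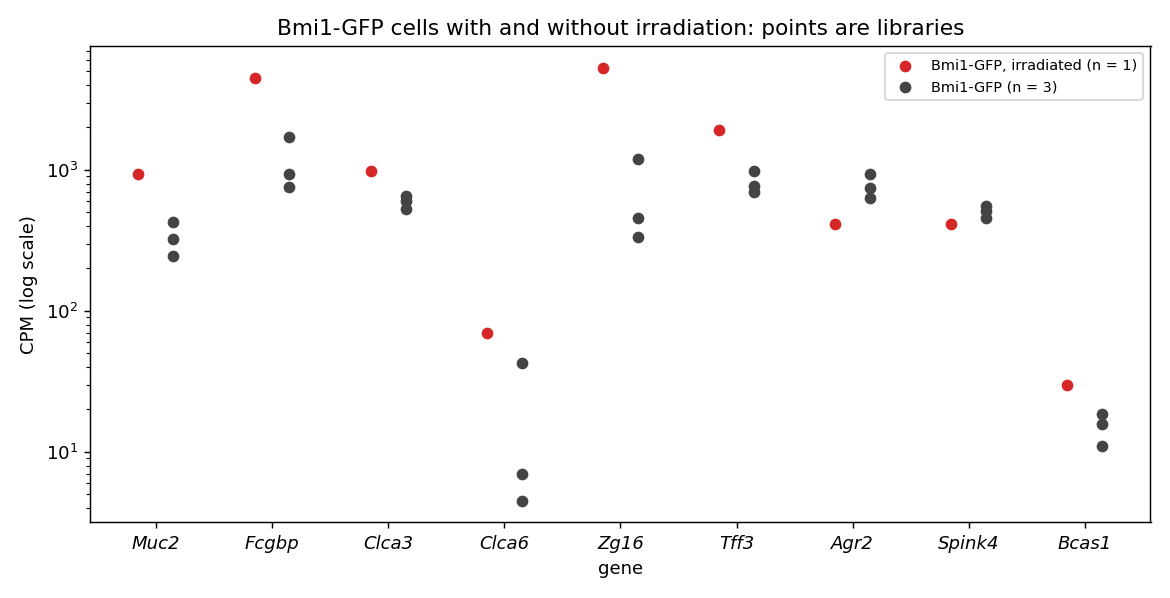
Level of each gene in the irradiated Bmi1-GFP library (red, n = 1) and the unirradiated ones (grey, n = 3), in CPM on a log scale. Zg16 and Fcgbp lie furthest above the unirradiated points, and Agr2 and Spink4 below them.

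The Lgr5-GFP stem cells of the DTR and Cre lines came from different reporter alleles. Lgr5-GFP-DTR cells were higher than Lgr5-GFP-Cre cells in 2 members, where 9.49% of all genes were called higher, 11.1% lower and 20.5% in either direction (median log2 0.31 for the members, -0.04 for all genes). Spink4 had 7320 and 4200 CPM, against 1680, 587 and 1080 CPM (log2 2.37, SE 0.47, adjusted p = 0.00197), and the ranges did not overlap. Agr2 had 1100 and 987 CPM, against 680, 250 and 416 CPM (log2 1.22, SE 0.41, adjusted p = 0.0413), a call lost without Lgr5-GFP-Cre replicate 2 (0.149) or 3 (0.0983) and without either DTR library (0.121 and 0.1), with library totals (0.075), in a fit of these 2 groups alone (0.107) and without the TruSeq libraries (0.0626). The other 7 had log2 fold changes from -1 (Fcgbp, SE 0.47) to 0.51 (Tff3, SE 0.45) and were not called. Fcgbp was called lower without DTR replicate 1 (log2 -1.9, adjusted p = 0.0279) and with library totals (log2 -1.46, adjusted p = 0.015). Paneth markers moved with the line, summing to 166000 to 228000 CPM in DTR libraries, against 40500 to 49800 CPM in Cre libraries (8 of 8 higher, median log2 2.08). Tuft cell markers moved further (8 of 8 higher, median log2 5.88; 1000 to 1380 CPM in DTR, against 17.9 to 22.4 CPM in Cre libraries), and the part of either list in the result was not tested. Of the other mucus biology genes 6 were higher and 2 lower, with Kdelr3 (41.2 ± 9.37 against 10.7 ± 1.5 CPM), Tmed3 (229 ± 11.7 against 94.9 ± 8.88 CPM) and Creb3l4 (69.1 ± 10.2 against 33.7 ± 2.86 CPM) higher, and Clca4 not called (943 ± 125 against 1910 ± 510 CPM).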

How the data were processed

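Libraries were read single-end at 75 bp. The authors deposited raw read counts, whole numbers without normalization, in a table of genes by libraries. Aligners and tools named in the submitters' processing notes are Bowtie2, TopHat2 (version 2.0.6) and DESeq2, and the build is mm10; no counter, annotation or strand setting is given in the sources used here. Table symbols were matched to RefSeq (GRCm38.p6), 7 of the 9 members directly and 2 as older symbols; the Clca genes are related copies that could share reads, and their values are uncertain to that extent.

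Counts were fitted in R 4.3.3 with edgeR 4.0.16 (filterByExpr, minimum count 10 and total 15; TMM; 1 quasi-likelihood model over 24 libraries of 11 groups, common dispersion 0.0714, prior degrees of freedom 5.44). The irradiated library was left out of the fit. A gene was called at a Benjamini-Hochberg adjusted p below 0.05 over all genes tested in a comparison; 15 comparisons gave 135 tests of members, 84 higher, 6 lower and 45 not called. Levels are CPM with these TMM factors, mean ± SD, and SE is that of the log2 fold change. The procedure was tested on simulated data. The alternatives were size factors of the DESeq2 type, library totals, no filter, the compared groups alone, no TruSeq libraries, a replicate block, DESeq2 1.42.0, and leaving out each library.

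Members and lists were chosen with earlier results of these data known. The rule for names takes all members, and in each comparison the 3 called genes of lowest adjusted p from the lists of other mucins, other Clca and trefoil genes, goblet regulators and secretory machinery, with their most abundant uncalled gene, and the 3 genes most like each member.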

Additional observations from a re-analysis of the deposited data

Results flagged for a closer look

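Agr2 was higher than in Atoh1-deleted crypts by log2 4.1 (SE 0.51) in Rbpj-deleted crypts and by 5.79 (SE 0.56) in DBZ crypts. The difference between these effects was -1.69 (SE 0.46, adjusted p = 0.0119, edgeR), which drew attention because 2 ways meant to block Notch gave unequal values. The Atoh1-deleted libraries are shared, so the difference is that of Rbpj-deleted against DBZ crypts. Both Rbpj-deleted libraries lay below both DBZ libraries. Between these groups 11.9% of all genes were called lower and 24.7% in either direction, so a call by itself says little. The call was lost without DBZ replicate 2 (log2 -1.3) and without either Rbpj-deleted library (log2 -1.71 and -1.77). Library kit, harvest time and the method meant to block Notch all differ between these groups and cannot be told apart.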

How the results depend on the processing

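Every member count below is of 9, and values are log2 fold changes unless named as counts; the cause of each change was not tested. Of the 135 member results, 132 kept direction and call with size factors of the DESeq2 type, 118 with library totals, 132 without a filter, 126 in a fit of the compared groups alone, 130 with DESeq2, and 111 of 117 had a value and kept both without the TruSeq libraries. Leaving out 1 library kept 527 of 612. In Rbpj-deleted against DBZ crypts, where 1 member was called, 2 were called with library totals, 2 with DESeq2 and 3 with the compared groups alone, and 0 to 1 without 1 library. After DT, against control, 0 were called and 1 with the compared groups alone. In Lgr5-GFP-DTR against Cre cells, where 2 were called, 1 was called with the compared groups alone and 1 without the TruSeq libraries, and 1 to 2 without 1 library. Without 1 library the count lay between 2 and 5 for Bmi1-GFP against enteroendocrine, 4 and 7 for enteroendocrine and 5 and 8 for Paneth against Lgr5-GFP-Cre cells. With library totals 6 members, not 7, had their highest mean in goblet cells.

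The labels do not say that replicate numbers pair samples, and the deviations of same-numbered Bmi1-GFP and Lgr5-GFP-Cre libraries correlated at -0.07, 0.03 and 0.15; over all comparisons, most with 2 pairs, the values ran from -0.33 (Rbpj-deleted against Atoh1-deleted) to 0.2 (enteroendocrine against Lgr5-GFP-Cre). With the number as a replicate block 129 of 135 member results were kept. In Rbpj-deleted against DBZ crypts 2 members were called (Zg16 added, adjusted p = 0.037). Zg16 was added (0.042) and Bcas1 lost (0.064) in Bmi1-GFP against Lgr5-GFP-Cre, and Clca3 was lost in Bmi1-GFP against enteroendocrine (0.0849). The 2 signs that turned were those of Bcas1 in Rbpj-deleted against DBZ crypts (log2 0.01) and Clca6 in Lgr5-GFP-DTR against Cre cells (log2 0.97).

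Signs turned only for members that were not called. With library totals these were Tff3 in goblet against enteroendocrine (-0.29), Agr2 in goblet against control CD274+CD69+ (-0.05), Bcas1 in Rbpj-deleted against DBZ (0.04), Fcgbp in Bmi1-GFP against enteroendocrine (0.06), and Muc2 (-0.04) and Zg16 (-0.15) in Lgr5-GFP-DTR against Cre; with DESeq2 or its size factors it was Bcas1 in Rbpj-deleted against DBZ (0.03). Without 1 library the range crossed 0 for Agr2 in goblet against Paneth (-0.87 to 0.38), Tff3 in goblet against enteroendocrine (-0.5 to 0.72), Clca6 in DBZ against Atoh1-deleted (-0.27 to 0.47), and Clca3 (-1.13 to 1.17), Spink4 (-0.55 to 0.45) and Bcas1 (-0.41 to 0.37) in Rbpj-deleted against DBZ. It also did for Tff3 in control CD274+CD69+ against Lgr5-GFP-Cre (-0.08 to 0.63), Clca6 (-2.01 to 0.05) and Spink4 (-0.37 to 0.43) in DT against control, Tff3 in Bmi1-GFP against Lgr5-GFP-Cre (-0.21 to 0.5), Fcgbp (-0.6 to 0.38) and Zg16 (-1.15 to 0.26) in Bmi1-GFP against enteroendocrine, and Muc2 (-0.01 to 0.71), Clca6 (-1.35 to 0.49), Zg16 (-1.35 to 1.05) and Bcas1 (-0.88 to 0.26) in Lgr5-GFP-DTR against Cre.

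Counts over all genes moved by more than 1.5 times in DBZ against Atoh1-deleted (365, and 657 with DESeq2), DT against control (26; 56 with no filter, 425 with the compared groups alone, 8 without TruSeq libraries, 127 with DESeq2), Paneth against Lgr5-GFP-Cre (6040, and 3848 with the compared groups alone) and Lgr5-GFP-DTR against Cre (3049; 4655 with library totals, 482 with the compared groups alone). Without 1 library the lowest counts were 141, 2146 for Rbpj-deleted against Atoh1-deleted, 1897 for Rbpj-deleted against DBZ, 4210 for control CD274+CD69+ against Lgr5-GFP-Cre, 9 for DT, 1152 for Bmi1-GFP against enteroendocrine and 1934 for Lgr5-GFP-DTR against Cre. The share of calls that were higher moved by over 10 points with library totals, from 41.5% to 30.4% for goblet against enteroendocrine, 42.5% to 26.8% against control CD274+CD69+ (54.1% with DESeq2-type size factors), 45.2% to 28.7% against DBZ crypts, 55.4% to 67.2% and 51.1% to 71.1% for Bmi1-GFP against Lgr5-GFP-Cre and enteroendocrine, 53.1% to 28.6% for Paneth and 46.2% to 15.3% for Lgr5-GFP-DTR against Lgr5-GFP-Cre. With 2 or 3 libraries a group, small differences such as those of Agr2 are at the limit of what these data can show.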
